A study of Mus musculus with 6 samples.

Results

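A set of 9 B cell programme genes was followed in sorted thymic tuft cells: the antigen receptor subunits Cd79a and Cd79b, the surface proteins Ms4a1 and Cd22, the adaptor Blnk, the transcription factors Pax5 and Ebf1, and the surrogate light chain genes Igll1 and Vpreb1. These 9 of the 55471 genes in the expression table were chosen from a list of known B cell genes, and Cd79b was singled out by its difference between the genotypes in these same libraries. That difference is therefore given as a description and supports no claim of its own. All 9 were found by Ensembl identifier, and 8 had a mean of at least 10 normalized counts, the limit for testing; Ms4a1 did not.

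Tuft cells are chemosensory epithelial cells, and in the thymus they form part of the medulla. They were sorted here on the surface protein L1CAM, and total RNA was sequenced after SMART-seq lysis. Every mouse carried floxed alleles of Ikzf1, which encodes the lymphoid zinc finger factor Ikaros. One group was Foxn1-Cre (-) with Ikzf1fl/fl, labelled WT, and the other Foxn1-Cre (+) with Ikzf1fl/fl, labelled KO, with 3 samples in each. Foxn1-Cre is active across thymic epithelium and not in tuft cells alone. The sources used here do not give age, strain or any pooling of animals. In the table the libraries are called Het and Ko, each numbered 1 to 3, and the Het columns were taken as the Cre-negative group by elimination. Replicates are not said to come from separate animals, so p-values measure only the spread between these samples.

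B cells detect antigen with a membrane immunoglobulin that cannot signal by itself. It pairs with a heterodimer of Cd79a and Cd79b, whose tails carry tyrosine motifs that recruit the kinase Syk, and Blnk then links Syk to phospholipase C and Btk. Before a light chain exists, Igll1 and Vpreb1 form a surrogate light chain in the pre-B cell receptor. Ebf1 and Pax5 set up and hold the B cell fate and act on Cd79a, Cd79b, Blnk and Cd22. Ms4a1 encodes the CD20 antigen, and Cd22 is an inhibitory lectin receptor.

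Both receptor subunits encode the same kind of signalling motif, shown here because one of them was abundant in these cells and its partner was not. The capitals mark the codons of the tyrosines and of the leucines or isoleucines that follow them, in the longest open reading frame of each GENCODE M21 transcript, 5′ to 3′.
Cd79a: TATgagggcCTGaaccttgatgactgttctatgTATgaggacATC
Cd79b: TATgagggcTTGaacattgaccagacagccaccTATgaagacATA
Each stretch has 45 bases, and 1 such motif was found in each reading frame.

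Recovered whole reads came to 12238400 to 31435800 per library, to 6 digits. In the shallowest libraries, Het3 and Ko3, 3 reads equal 4.33 and 4.30 normalized counts. The targeted gene went against the labels: Ikzf1 stood at 301, 187 and 273 normalized counts in Het1 to Het3 and at 1572, 1463 and 1717 in Ko1 to Ko3 (limma adjusted p = 0.0105). Gene-level values do not resolve the floxed part, so each direction below is between libraries as labelled. All 20 tuft markers on the list, such as Pou2f3, Trpm5 and Dclk1, were at 100 or more in every library, and so were all 8 epithelial markers. The sort marker L1cam was at 2745 ± 331 in libraries labelled Het and 3670 ± 687 in those labelled Ko (SD, n = 3 each).

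Cd79b was read strongly in all 6 libraries. It stood at 3039, 1876 and 2473 normalized counts in Het1 to Het3, resting on 5434, 2643 and 1714 reads. In Ko1 to Ko3 it stood at 4665, 5508 and 5665, resting on 4534, 5317 and 3955 reads. The lowest library labelled Ko lay above the highest labelled Het, so the groups did not overlap. The means were 2463 ± 581 and 5279 ± 538 (SD, n = 3 each), a ratio of 2.14. The log2 fold change from limma, a difference of mean log2 levels, was 1.12 ± 0.20 (SE, limma adjusted p = 0.0433 over all genes). The authors' deposited table gives a log2 fold change of 1.10 with an adjusted p of 7.30e-04, and that table called 8.19% of its genes at 0.05. Scaled only to library totals (RPM), Cd79b was at 105 to 173 in libraries labelled Het and 270 to 323 in those labelled Ko. Bulk RNA cannot tell more cells that express a gene from more RNA per cell.

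The call for Cd79b depended on the fit. edgeR gave an adjusted p of 0.0826 and DESeq2 7.62e-05, the ends over 16 alternatives being 7.62e-05 and 0.171. It was lost without any 1 of Het2, Het3, Ko1, Ko2 or Ko3 (limma adjusted p = 0.142, 0.171, 0.0661, 0.108 and 0.138), and kept without Het1 (0.0362). The log2 fold change stayed between 0.94 and 1.29 over all 16.

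Cd79a, the partner of Cd79b in the heterodimer, was close to undetected outside a single library. It had 1, 152 and 7 reads in Het1 to Het3, and 2, 1 and 1 in Ko1 to Ko3. Its normalized counts were 0.559, 108 and 10.1 in libraries labelled Het and 2.06, 1.04 and 1.43 in those labelled Ko. Het2 thus held nearly all Cd79a reads, and the groups overlapped through Het1 (log2 fold change -2.32 ± 1.79 SE; limma adjusted p = 0.627). On reads the estimate was larger, -4.57 in edgeR (adjusted p = 0.345) and -4.70 in DESeq2 (adjusted p = 0.171), and the authors' deposited table gives -4.71 with an adjusted p of 0.0795. For each Cd79a read there were 5434, 17.4 and 245 Cd79b reads in Het1 to Het3, and 2267, 5317 and 3955 in Ko1 to Ko3. Both genes have similar exon lengths, 1457 and 1431 bases in GENCODE M21, so these ratios are close to ratios per length. The log2 ratio of Cd79b to Cd79a was 3.44 ± 1.99 (SE) higher in libraries labelled Ko, and 1.69 ± 1.58 without Het2. Ratios within a library need no scaling between libraries; no test was made on them, since the pair was picked with its values known.

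**Figure D1:**
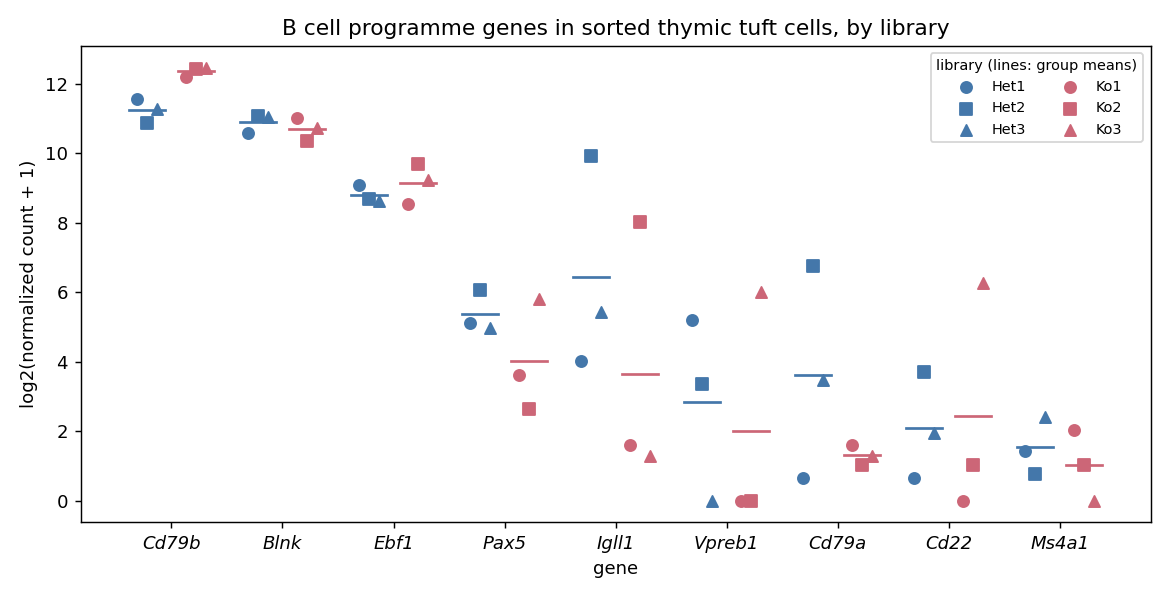
Each point is 1 library, blue for Het and red for Ko, on a log2(normalized count + 1) axis, with the 9 genes on the horizontal axis and short lines at the group means. Cd79b, chosen for its difference between the groups, is the one gene whose 3 Ko points all lie above its 3 Het points. Of all tested genes, 8.57% showed that pattern. Cd79a, Igll1, Cd22 and Vpreb1 are uneven, each high in few libraries.

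Blnk, the adaptor downstream of the receptor, was also abundant in every library. It stood at 1519, 2136 and 2130 normalized counts in Het1 to Het3 and at 2052, 1306 and 1680 in Ko1 to Ko3. The groups overlapped, with means of 1928 ± 354 and 1679 ± 373 (SD, n = 3 each) and a log2 fold change of -0.21 ± 0.24 (SE; limma adjusted p = 0.775). Set against Blnk in the same library, Cd79b had a log2 ratio of -0.19 to 0.9995 in libraries labelled Het and 1.18 to 2.08 in those labelled Ko. Those ranges did not overlap, and the group means lay 1.33 apart. Cd79b was chosen for its difference between the groups, so this ratio carries that choice and nothing further is read from it.

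Ebf1, a factor that opens the B cell programme, was the third gene present throughout. It measured 547, 410 and 391 normalized counts in Het1 to Het3 and 375, 830 and 596 in Ko1 to Ko3. Ko1 lay below all libraries labelled Het and Ko2 and Ko3 above them, so the groups overlapped (log2 fold change 0.36 ± 0.37 SE; limma adjusted p = 0.738). The log2 ratio of Cd79b to Ebf1 ran from 2.19 to 2.66 in libraries labelled Het and from 2.73 to 3.64 in those labelled Ko. This ratio too carries the choice of Cd79b. Pax5, which holds cells in the B lineage, was low: 33.6, 65.3 and 30.3 in Het1 to Het3, and 11.3, 5.18 and 54.4 in Ko1 to Ko3. Its reads numbered 173 and 54 over the groups, and Ko3 fell inside the range of the libraries labelled Het (log2 fold change -1.36 ± 1.19 SE; limma adjusted p = 0.677). Pax5, Ebf1, Cd22 and Ms4a1 have annotated antisense genes, and without a stated strand setting reads of the partners cannot be told apart. The partner of Cd22 was at 0 normalized counts in every library, and that of Ms4a1 at 2.80 or less. That of Ebf1, Gm12158, reached 40.4 in Ko2. Opposite Pax5, Gm12462 reached 31.5 in Ko3, and 4930517J16Rik was at 27.0 to 43.3 in libraries labelled Het and 0 to 4.30 in those labelled Ko.

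The surrogate light chain genes were uneven, each high in few libraries. Igll1, which encodes the lambda 5 chain, was at 15.1, 962 and 41.8 normalized counts in Het1 to Het3 and at 2.06, 257 and 1.43 in Ko1 to Ko3. Het2 and Ko2 held most of its reads, 1355 and 248. Vpreb1 was at 35.8, 9.23 and 0 in Het1 to Het3 and at 0, 0 and 63.0 in Ko1 to Ko3, so 3 libraries had no read of it. It has a near-identical copy, Vpreb2, and lies opposite the gene Top3b, read at 472 to 912, so its own value is uncertain. The log2 fold changes were -2.81 ± 2.02 for Igll1 and -0.85 ± 2.11 for Vpreb1 (SE; limma adjusted p = 0.597 and 0.904), and that of Vpreb1 was above 0 in edgeR and DESeq2 (log2 0.44 and 0.49).

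The surface genes Ms4a1 and Cd22 had few reads in most libraries. Ms4a1 had 3, 1 and 3 reads in Het1 to Het3 and 3, 1 and 0 in Ko1 to Ko3. Cd22 was at 0.559, 12.1 and 2.89 normalized counts in Het1 to Het3 and at 0, 1.04 and 75.9 in Ko1 to Ko3. Ko3 alone carried 53 of the 54 Cd22 reads in libraries labelled Ko, and the fold change was below 0 without Het1 and above 0 with all libraries (log2 -0.40 and 0.33). Ko3 was also the highest library for Vpreb1, and Het2 the highest for Cd79a, Igll1 and Pax5.

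Levels were compared between genes as normalized counts per kilobase of exon. Cd79b ranked first at 1311 to 3959 over the 6 libraries, and its lowest library lay above the highest of Blnk, which ran from 218 to 356. Igll1 (0.662 to 445), Ebf1 (38.4 to 85.1) and Vpreb1 (0 to 52.6) followed by mean level. Cd79a (0.384 to 74.1), Pax5 (0.585 to 7.38), Cd22 (0 to 15.1) and Ms4a1 (0 to 0.700) came last. From Blnk downward each gene's range overlapped that of the next. Blnk overlapped Igll1 alone and lay above the other members below it, and Ebf1 lay above Pax5, Cd22 and Ms4a1 in every library.

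**Figure D2:**
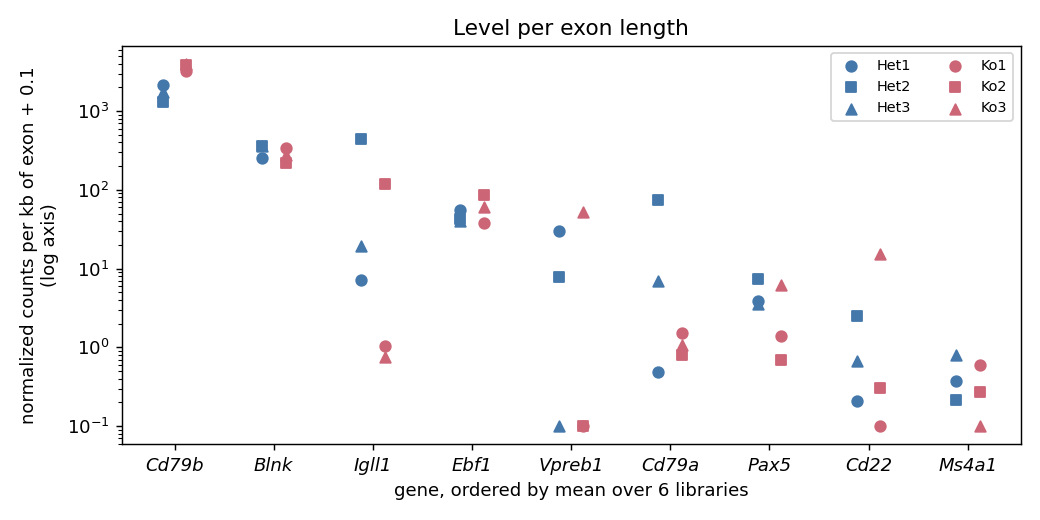
Points are libraries, and the vertical log axis gives normalized counts per kilobase of annotated exon, plus 0.1 so that values of 0 can be drawn. Cd79b lies at 1311 to 3959, above every library of the other 8 genes.

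The question whether Cd79b moved with the rest was put to the 8 tested genes. Of the 8 tested, 3 fold changes were above 0 and 5 below (Cd22 and Vpreb1 changed sign between fits), and the median on the log2 scale was -0.53 against -0.05 over all 19416 genes tested. The limma fit called 1 of the 8, Cd79b, where 0.814% of all genes were called and 0.288% were called as higher. Its groups were also the only ones of the 8 that did not overlap, a pattern that 8.57% of tested genes showed upward and 9.86% downward. edgeR called 0 of the 8, with 0.386% of genes called, DESeq2 called 1 of the 5 it gave an adjusted p, with 6.93% of genes called, and 1 of the 8 had an unadjusted limma p under 0.05. These contrasts chose Cd79b, so nothing is read from the shares. Summed over the other 8 members, normalized counts were 2154, 3703 and 2610 in Het1 to Het3 and 2445, 2401 and 2472 in Ko1 to Ko3. That sum is mostly Blnk and Ebf1, and its groups overlapped. Over the 6 libraries, Pearson's r of log2 levels with Cd79b was 0.60 for Ebf1, -0.60 for Blnk and -0.80 for Cd79a. It was -0.57 for Pax5, -0.57 for Igll1, -0.31 for Ms4a1, 0.03 for Cd22 and -0.03 for Vpreb1. Cd79a had 152 reads in Het2, where Cd79b was lowest, and 1 to 7 in each other library. These values describe libraries that also differ in genotype.

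Defining B cell markers outside the 9 genes were checked next. Fcrla had 0 to 1 reads per library, Tnfrsf13c, the receptor for the survival factor BAFF, 0 to 10, Fcmr 0 to 11 and Bank1 2 to 11. Ighd had 0 to 129 reads, Pou2af1 1 to 105, Fcer2a 5 to 88 and Cr2 3 to 201. Higher counts were found for others on the list: Ighm at 72 to 683 reads, Igkc at 147 to 236, Cd37 at 114 to 642, Vpreb3 at 0 to 2599 and Spib at 3280 to 9872. Of the 14 markers on the list, 4 stayed under 10 normalized counts throughout and 9 were tested. limma called 0 of the 9, beside 0.814% of all genes, with 3 at an unadjusted p under 0.05, beside 13.6%. edgeR called 0, beside 0.386%, and DESeq2 called 1 of 8, Cd37, beside 6.93%. Their summed level was 6207 to 8012 in libraries labelled Het and 7107 to 8199 in those labelled Ko, of which Spib, a factor shared with other lineages, made up most.

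Lists without the 9 members held 82 further genes of the programme, of which 67 passed the limit for testing. limma called 0 of the 67, where 0.814% of all genes were called, and edgeR also called 0. At an unadjusted p under 0.05 limma gave 18 of the 67, against 13.6% of all genes. DESeq2 gave 2 higher and 4 lower of 57 with an adjusted p, beside the 6.93% above: Cd37 and Itpr2 higher, and Ly6d, Iglc3, Il7r and Pik3ap1 lower. The groups did not overlap for 7 genes upward and 11 downward, beside 8.57% and 9.86% of all genes. The median log2 fold change was -0.19, with 30 positive and 37 negative.

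Of 20 other surface and coreceptor genes 14 were tested, 6 with fold changes above 0 and 8 below (median log2 fold change -0.58). Cd24a, a glycoprotein shared by many immature and epithelial cells, stood at 25263 to 34478 normalized counts. Ly6d, likewise shared with epithelium, was at 36708 ± 8997 in libraries labelled Het and 20236 ± 4861 in those labelled Ko (SD, n = 3 each; limma adjusted p = 0.101). The tetraspanin gene Cd37 was at 242 ± 67.3 and 644 ± 233 (limma adjusted p = 0.178). Cd81, another tetraspanin gene, was at 1162 ± 309 and 1745 ± 33.0 (0.316).

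Immunoglobulin genes were low and uneven (10 tested of 13, median -0.44). Their summed level was 915 to 1866 in libraries labelled Het and 636 to 934 in those labelled Ko, so the ranges overlapped slightly. Iglc3, a lambda constant region, was at 261, 664 and 405 in Het1 to Het3 and at 30.9, 184 and 50.1 in Ko1 to Ko3 (limma adjusted p = 0.142). Lambda constant genes are near copies of each other, and its value is uncertain for that reason. Among pre-receptor and recombination genes (5 tested of 8, median 1.22), the recombinase genes Rag1 and Rag2 never passed 5.73 and 1.43 normalized counts. Vpreb3, a chaperone of immature B cells, was at 18.5, 1845 and 1730 in Het1 to Het3 and at 2.06, 95.3 and 0 in Ko1 to Ko3 (limma adjusted p = 0.239). Vpreb3 was thus high in Het2, as Cd79a and Igll1 were, but also in Het3, where those were low.

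Transcription factors of the lineage were all above the limit (16 of 16, median 0.08). Spib was at 4626 ± 953 in libraries labelled Het and 6264 ± 666 in those labelled Ko (SD, n = 3 each; limma adjusted p = 0.319). Tcf3, an E protein that acts upstream of Ebf1, was at 240 ± 76.6 and 534 ± 189 (0.276). Ikzf3, the Ikaros relative Aiolos, was at 299, 155 and 410 in Het1 to Het3 and at 149, 82.9 and 11.5 in Ko1 to Ko3 (0.309).

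Of the 25 signalling genes below the receptor, 22 were tested, with a median log2 fold change of -0.26, and 15 were at 100 or more in every library. The phosphatase genes Ptpn6 and Inpp5d ran at 6854 to 9937 and 3555 to 5955 normalized counts, and the exchange factor gene Vav1 at 5266 to 8437. Plcg2, the phospholipase that Blnk recruits in B cells, was at 2864 ± 354 in libraries labelled Het and 4151 ± 204 in those labelled Ko (SD, n = 3 each; limma adjusted p = 0.184). Itpr2, a calcium release channel gene, was at 5591 ± 737 and 8436 ± 1102 (0.131). Syk was at 193, 503 and 379 in Het1 to Het3 and at 72.0, 208 and 18.6 in Ko1 to Ko3. Btk, the Tec kinase of B cells, stayed between 1.04 and 4.30, and Bank1 between 2.06 and 6.15. Pik3ap1, an adaptor for phosphoinositide 3-kinase, was at 39.7, 178 and 215 in libraries labelled Het and at 6.17, 1.04 and 2.86 in those labelled Ko (0.108).

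**Figure D3:**
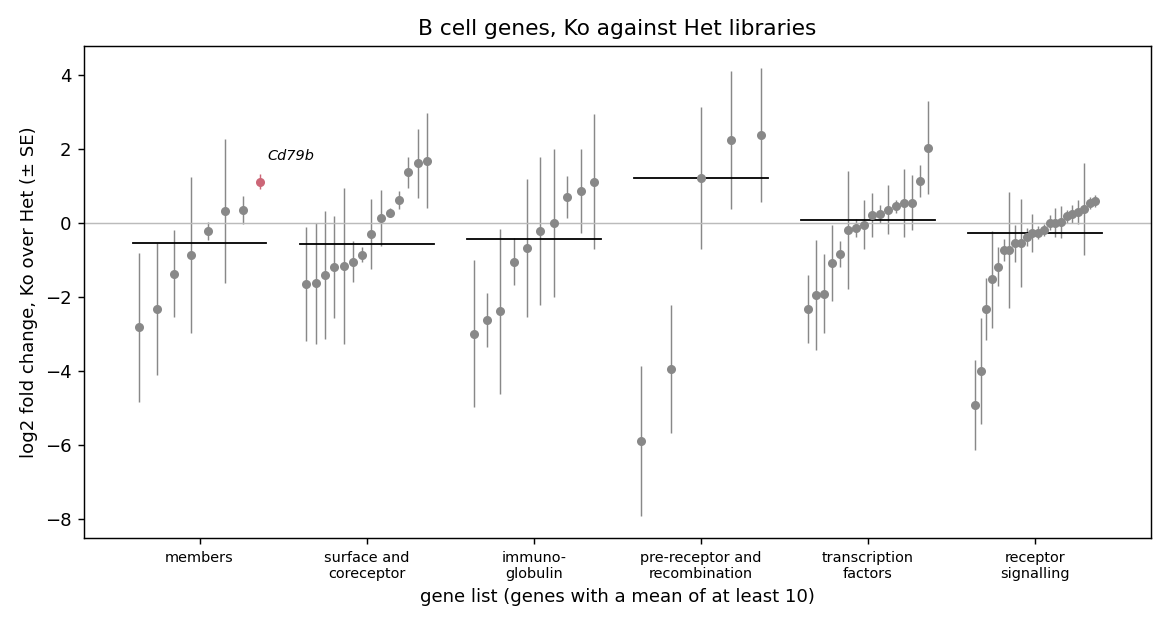
Points are log2 fold changes of Ko over Het with their SE for the tested genes of each list, ordered by value within a list, and black lines are list medians. Cd79b, in red, is the one gene called by limma among the 8 tested members and the 67 other B cell genes, where 0.814% of all genes were called. Cd79b was chosen by this contrast.

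Markers of other cells were compared with Cd79b. The 14 white blood cell genes summed to 36620 to 39399 normalized counts in libraries labelled Het and 28263 to 29340 in those labelled Ko, the opposite direction to Cd79b. That sum was mostly Vav1, Ptpn6, Laptm5, Rac2 and Lcp1, each at 3064 or more in every library. Of the 14 genes, 12 were tested, 11 had negative fold changes, and 0 were called by limma, beside 0.814% of all genes. At an unadjusted p under 0.05 limma gave 6 of the 12, beside 13.6%, while edgeR called 0, beside 0.386%, and DESeq2 3 of 11, all lower, beside 6.93%. Cd52 was at 1263, 4462 and 7246 in Het1 to Het3 and at 835, 601 and 1023 in Ko1 to Ko3. The panleukocyte gene Ptprc stood at 489 to 660 and 301 to 520. T cell genes summed to 634 to 1508 and 879 to 1591. On that list 12 were tested, 4 with fold changes above 0 and 8 below. limma and edgeR called 0 of them, beside 0.814% and 0.386% of all genes. DESeq2 gave 1 higher and 1 lower of 9, beside 6.93%. Themis, a signalling gene of developing T cells, had the smallest p on the list and the direction of Cd79b. It was at 8.39, 58.9 and 79.4 in Het1 to Het3 and 434, 379 and 908 in Ko1 to Ko3, without overlap (limma adjusted p = 0.0735, DESeq2 4.16e-05). Trbc1, next by p, had the opposite direction, at 33.0, 125 and 362 in Het1 to Het3 and 7.20, 3.11 and 37.2 in Ko1 to Ko3 (limma adjusted p = 0.270, DESeq2 0.0379). The sums of myeloid genes were 22243 to 68899 and 18127 to 23839, where Het1 was high through Lyz2. In the other libraries Cst3, at 14294.4 to 20448.5 over all 6, made up most of the sum. Lyz2 was at 53300, 3666 and 8729 in Het1 to Het3 and at 497, 2900 and 1130 in Ko1 to Ko3, without overlap (limma adjusted p = 0.122). Of the 12 tested, 4 fold changes were above 0 and 8 below. limma and edgeR called 0 of them, beside 0.814% and 0.386% of all genes, and DESeq2 gave 2 lower of 10, beside 6.93%. Of the markers of plasmacytoid dendritic cells, which can also express Cd79b, Siglech had at most 18.5 normalized counts, in Ko1. Others on that list were abundant, with Irf7 at 4004 to 7556. Irf8 was at 493, 1047 and 732 in Het1 to Het3 and at 444, 386 and 382 in Ko1 to Ko3, without overlap (limma adjusted p = 0.330). Bst2 was at 1351 to 1882 in libraries labelled Het and 792 to 957 in those labelled Ko (DESeq2 adjusted p = 0.0477). That list of 12 summed to 38947 to 55709 in libraries labelled Het and 29645 to 38099 in those labelled Ko, mostly Ly6d. Of its 11 tested genes 4 had fold changes above 0 and 7 below. limma called 1 of the 11, beside 0.814% of all genes, and DESeq2 gave 1 higher and 3 lower of 9, beside 6.93%. The called gene was the kallikrein gene Klk1, at 1296, 222 and 1796 in Het1 to Het3 and at 2.06, 28.0 and 1.43 in Ko1 to Ko3 (limma adjusted p = 0.0338). Tcf4, a basic helix-loop-helix factor needed for plasmacytoid dendritic cells, had the same direction as Cd79b: 2316, 2187 and 2096 in Het1 to Het3 and 3864, 4346 and 3736 in Ko1 to Ko3, without overlap (limma adjusted p = 0.0504; DESeq2 3.31e-04). Ptpn6 and Vav1 stand on both the white blood cell and the signalling list, and Ly6d and Irf8 on both the dendritic cell list and a B cell list. The part of these cells in the result for Cd79b was not tested.

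Cd79b was also set against the tuft list within each library. The 20 tuft markers summed to 129757 to 182751 normalized counts in libraries labelled Het and 168694 to 191078 in those labelled Ko, and these ranges overlapped. Cd79b equalled 1.66%, 1.16% and 1.91% of that sum in Het1 to Het3 and 2.77%, 3.19% and 2.96% in Ko1 to Ko3. The group means were 1.58 ± 0.38% and 2.97 ± 0.21% (SD, n = 3 each), a ratio of 1.89 where the unadjusted levels gave 2.14. These percentages carry the choice of Cd79b for its difference between the groups. Of the 20 markers, 17 had positive fold changes, with a median log2 fold change of 0.33, and limma called 1, the cyclooxygenase gene Ptgs1, as higher, where 0.288% of all genes were called higher. DESeq2 gave 2 higher and 1 lower of the 20, beside 6.93% of all genes: the prostaglandin synthase gene Hpgds and Ptgs1 higher, and the G protein gene Gng13 lower. Gng13 was at 27672 ± 2147 in libraries labelled Het and 17173 ± 2629 in those labelled Ko (SD, n = 3 each; limma adjusted p = 0.0504), without overlap. Of the epithelial genes the claudin gene Cldn7 had the smallest p, at 10996 ± 1357 and 17357 ± 1903 (limma adjusted p = 0.0644).

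**Figure D4:**
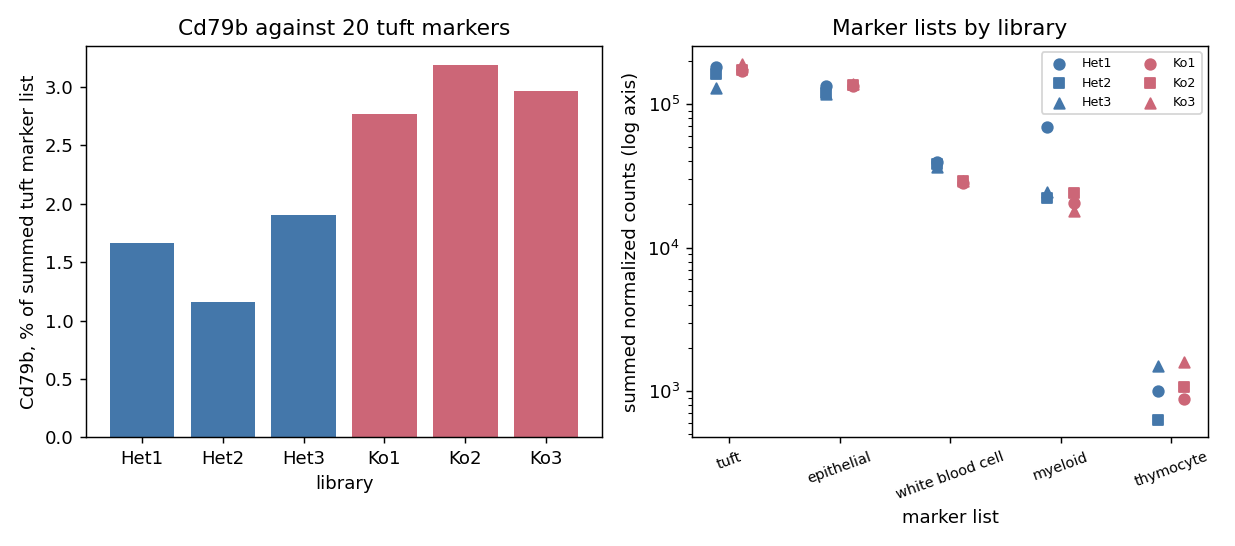
Left, bars give Cd79b as a percentage of the summed normalized counts of 20 tuft markers in each library, from 1.16% to 1.91% in Het and 2.77% to 3.19% in Ko libraries. Right, points give the summed normalized counts of each marker list by library on a log axis; the white blood cell sums are lower in the 3 Ko libraries.

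Genes next to Cd79b on its chromosome, in RefSeq's order for GRCm38.p6, were read for comparison. The growth hormone gene Gh, on one side, was at 0.559, 263 and 39.0 normalized counts in Het1 to Het3 and at 2.06, 0 and 0 in Ko1 to Ko3. The sodium channel gene Scn4a, on the other side, ran from 1.43 to 41.8. Gh was highest in Het2, as Cd79a was. Farther out, Smarcd2, Psmc5, Prr29, Icam2 and Ern1 had log2 fold changes of -0.47, -0.15, -2.15, -0.05 and 0.62, and the smallest limma adjusted p among these 7 neighbours was 0.14, for Prr29. Tcam1 and the small RNA gene Gm23645 fell under the limit for testing, and the noncoding gene LOC108167929 could not be matched to a measured gene.

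The genes most like Cd79b over the 6 libraries were also listed. So wide a search over so few libraries finds high values by its size, so they are not compared with those of the members. Among 13842 genes with a mean of at least 50, the highest Pearson's r of log2 levels were 0.9971 for Ttll7, 0.9958 for Isoc1, 0.9949 for Hnrnpa0, 0.9946 for Snrnp48 and 0.9918 for Gm20559. Ttll7, a tubulin polyglutamylase gene, was at 105, 42.6 and 73.6 in Het1 to Het3 and at 184, 262 and 291 in Ko1 to Ko3. Of these 13842 genes, 106 had an r over 0.95 and 380 over 0.9. The 6 libraries fall into 2 groups, which these genes share with Cd79b, and Cd79b was chosen for its difference between those groups.

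Sequence before the start site was read for the members that RefSeq's GRCm38.p6 promoter table holds, 7 of the 9; Cd79b and Ms4a1 were not among them. The 250 bases upstream are printed for Blnk, read in every library, and for Cd79a, nearly unread outside Het2. Capitals mark the octamer.
Blnk, chr19:40994222-40994471, minus strand: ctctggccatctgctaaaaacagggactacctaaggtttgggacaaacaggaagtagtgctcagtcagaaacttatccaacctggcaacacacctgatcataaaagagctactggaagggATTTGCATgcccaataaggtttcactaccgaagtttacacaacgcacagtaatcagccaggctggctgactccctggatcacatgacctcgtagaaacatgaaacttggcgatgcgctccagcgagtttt
Cd79a, chr7:24897247-24897496, plus strand: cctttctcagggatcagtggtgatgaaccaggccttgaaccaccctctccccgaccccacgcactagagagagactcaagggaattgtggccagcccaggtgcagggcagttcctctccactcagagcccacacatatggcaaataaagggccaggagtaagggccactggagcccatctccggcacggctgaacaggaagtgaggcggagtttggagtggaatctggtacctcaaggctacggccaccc
Searched on both strands were the octamer ATGCAAAT of Pou2f factors, the Ikaros core TGGGAA and the Ebf1 core CCCNNGGG. The Blnk window held the octamer on the reverse strand, 130 to 123 bases before the start, as 1.60% of 32851 promoter windows of this length did. An Ikaros core lay before Cd22 and before 1 of the 2 Ebf1 starts, with 21.6% of all windows holding one. An Ebf1 core lay before Cd22 and Igll1, with 11.8% of windows holding one. No exact match of the 3 was in the windows of Cd79a, Pax5 or Vpreb1. Looser forms of these sites were not searched, so the lack of an exact match does not show that a site is absent. A match describes letters only and shows no binding.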

How the data were processed

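RNA of 6 sorted tuft cell samples, 3 per genotype, was sequenced by the authors, who used STAR 2.7.9a, GRCm39 and DESeq2, per the submitters' processing notes; which counter, annotation and strand setting they chose is not given in the sources used here. Values in the deposited table are a normalized signal, that is, counts per gene divided by a size factor for each library. Their second deposited table gives, per the file headers, each gene's log2 fold change with its Wald score and p-values, raw and adjusted. Ko columns were matched to genotype KO and Het columns to WT by elimination; no column could be tied to 1 sample.

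Every value above 0 was a whole multiple of 1 step per library, so reads were recovered (100% whole within 0.01 reads). Differences between replicates exceeded sampling noise in each within-group pair (chi-square per degree of freedom 56.9 to 134). The p-values came from limma 3.58.1 in R 4.3.3 (lmFit, eBayes with trend, two-sided) on log2(value + 1), for 19416 genes with a mean of at least 10, with Benjamini-Hochberg adjustment at 0.05 over all genes; this scale understates changes of low genes. An exact permutation test of 3 against 3 cannot go below 0.10. edgeR 4.0.16 (quasi-likelihood) and DESeq2 1.42.0 were run on the recovered reads, and the tests were tested on simulated data. DESeq2 adjusted p-values given as NA stayed NA. Alternatives changed the pseudocount, the limit on low values, the scaling, the variance shrinkage, the tool and the block, or left out 1 library at a time.

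Of 55471 gene identifiers, 55144 found a symbol in the name table used. Exon lengths are unions of GENCODE M21 exons on GRCm38, while reads were aligned to GRCm39, and positions of measured genes are left out for that reason. The members and lists were chosen with earlier results of these data known. Genes named are the 9 members, Ikzf1 and L1cam, called genes and among the 3 with the smallest p of each list those described, the defining B cell markers (1 of them is not reported here), the 5 genes most like Cd79b and its 5 neighbours on each side; abundant list members and those near 0 were picked after their values were seen.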

Additional observations from a re-analysis of the deposited data

How the results depend on the processing

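Over 16 alternatives the log2 fold change of Cd79b stayed positive, from 0.94 to 1.29, and 9 kept its call: pseudocounts of 0.5 and 5, no filter, a mean of at least 50, TMM scaling, equal library totals, DESeq2, robust eBayes and the fit without Het1. It was 1.11 in edgeR (adjusted p = 0.0826), and without single libraries it ran from 0.94 to 1.29, with the call lost in 5 of those fits; the cause was not tested. limma called 158 genes in all, edgeR 75, DESeq2 1151 and robust eBayes 239; leaving out 1 library gave 0 to 116. Of the members, limma called 1 and edgeR 0, beside 0.814% and 0.386% of all genes, and the fits without 1 library called 0 to 1. Of the other B cell genes limma called 0 of 67, beside the same 0.814%. DESeq2 called 6 of the 57 it gave an adjusted p, beside 6.93% of all genes. With the column number as a replicate block, 87 genes and 0 members were called and Cd79b had 1.12 (adjusted p = 0.0744); same-numbered columns correlated at 0.025, 0.0214 and -0.0153 in their deviations from the group means, so the numbers were not taken as pairs. No alternative moved the median log2 fold change of all genes by more than 0.041. The difference of the log2 ratio of Cd79b to Cd79a ran from 1.69 to 5.10 without single libraries. Low members rest on few reads, with 4 reads of Cd79a over the libraries labelled Ko.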
